A study of Mus musculus with 16 samples.

Results

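Immediate early genes were followed in mitral cells of ICR mice, the glutamatergic neurons that carry the output of the olfactory bulb. The set held 10 genes, Fos, Fosb, Junb, Egr1, Egr2, Npas4, Nr4a1, Ier2, Arc and Dusp1, out of 20120 named genes with a probe on the array. Members were taken as every probe whose RefSeq accession maps to 1 of these symbols, which gave 1 probe per gene. The 16 samples fell into 4 groups of 4 pools. Control cells at postnatal day 3 (P3 control) and postnatal day 6 (P6 control) carried pCAG-EYFP alone, a plasmid that gives a yellow fluorescent protein from the broadly active CAG promoter. Kir2.1 cells at the same ages (P3 Kir2.1 and P6 Kir2.1) carried pCAG-EYFP together with pCAG-Kir2.1, which gives an inwardly rectifying potassium channel that lowers excitability. All cells, controls included, took up plasmid by in utero electroporation on embryonic day 12, and were later freed with enzymes and picked by hand as single fluorescent cells. After 30 cycles of PCR on each cell's cDNA, 10 cells made up 1 pool and 1 array, so each group rests on 40 cells. The labels do not say how many animals gave the cells, so the p-values measure the spread between pools, part of which may be technical. In a pool, fewer expressing cells and less RNA per expressing cell cannot be told apart.

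Immediate early genes are transcribed within minutes of a stimulus without the need for new protein, and in neurons they are widely read as traces of recent electrical activity. Calcium entry and growth factor signals reach their promoters through kinases that act on factors already present, chiefly CREB at the cAMP response element (CRE) and serum response factor (SRF) with its cofactors at the CArG box. Many members encode transcription factors that in turn drive later genes, and others act directly at synapses or on the signalling cascade. Handling and enzymatic dissociation of tissue can also induce many of these genes.

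The members' promoters were examined for the elements through which activity is known to act, and the 4 below are shown because Fos, Npas4, Nr4a1 and Dusp1 carry much of what follows. Sequences are those of RefSeq for the assembly GRCm38.p6, 250 bases before an annotated start, 5′ to 3′ on the gene's strand. The annotated spans of Npas4 and Nr4a1 extend upstream of the starts used. Capitals mark the CRE half-site TGACG or its reverse complement CGTCA, the full CRE TGACGTCA, which contains the half-site on both strands, and TATAAA.
Fos, chr12:85473640-85473889, + strand: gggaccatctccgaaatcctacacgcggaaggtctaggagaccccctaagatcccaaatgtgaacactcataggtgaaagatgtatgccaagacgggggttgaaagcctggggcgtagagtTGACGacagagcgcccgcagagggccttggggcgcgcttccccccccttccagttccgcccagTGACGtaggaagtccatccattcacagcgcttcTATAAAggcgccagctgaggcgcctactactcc
Npas4, chr19:4989972-4990221, - strand: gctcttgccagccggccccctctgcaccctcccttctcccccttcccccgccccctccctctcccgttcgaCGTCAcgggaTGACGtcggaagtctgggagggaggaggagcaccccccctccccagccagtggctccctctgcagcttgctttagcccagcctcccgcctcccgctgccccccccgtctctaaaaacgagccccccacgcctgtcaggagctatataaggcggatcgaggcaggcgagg
Nr4a1, chr15:101266596-101266845, + strand: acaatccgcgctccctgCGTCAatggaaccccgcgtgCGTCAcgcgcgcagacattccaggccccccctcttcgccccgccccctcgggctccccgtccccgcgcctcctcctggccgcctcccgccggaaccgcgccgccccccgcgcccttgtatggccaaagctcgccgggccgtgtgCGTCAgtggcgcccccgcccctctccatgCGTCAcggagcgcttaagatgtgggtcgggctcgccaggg
Dusp1, chr17:26508473-26508722, - strand: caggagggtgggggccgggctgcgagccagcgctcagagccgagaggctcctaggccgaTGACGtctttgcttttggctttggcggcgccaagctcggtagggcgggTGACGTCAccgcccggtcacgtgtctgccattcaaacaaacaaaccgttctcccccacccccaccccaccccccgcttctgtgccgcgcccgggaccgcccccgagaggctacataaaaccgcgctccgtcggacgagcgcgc
The promoter table held 7 members, Fos, Fosb, Junb, Egr2, Npas4, Nr4a1 and Dusp1, with 11 windows among them. All 7 members had the half-site on either strand in at least 1 window, and 9 of the 11 windows held it. Egr2 has 5 of the 11 windows, and 3 of its windows overlap and hold the same 2 half-sites, so windows are not separate. The half-site occurred in 17.8% of all 32851 windows of the same length. Nr4a1 had 4 half-sites, at 233, 213, 69 and 40 bases before the start, and Npas4 had 2, at 179 and 169 bases. Fos had 2, at 129 and 66 bases, with TATAAA at 33 bases before the start. The full CRE occurred in 1 member, Dusp1, 143 bases before the start, and in 1.55% of all windows. The CArG box was found in 1 member, Egr2, and in 1.47% of all windows. The AP-1 site TGANTCA, searched on both strands, was found in 0 of the 7 members and in 6.75% of all windows. A match describes these letters in this window only and is not evidence of binding in these cells.

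Levels below are log2 processed signals minus the array's 75th percentile, so that a level of 0 equals a bright probe of that array and a difference of 1 is a doubling. Each array had 34.3% to 41.1% of its probes well above background, and the lowest such signal of an array lay between -8.27 and -6.90. Of 13 mitral and tufted cell markers, 8 were well above background on all 16 arrays (Cdhr1, Tbx21, Eomes, Tbr1, Slc17a7, Slc17a6, Nrp1 and Pcdh17), and Lhx5 was on 0. P3 and P6 arrays lay on different slides with different scans, and the effects of age and of slide cannot be told apart. Control and Kir2.1 pools lay on different rows of each slide, so row and treatment cannot be told apart.

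Fosb and Nr4a1 were well above background on all 16 arrays, Dusp1 on 14, Egr1 on 12, Npas4 on 11, Arc on 9, Fos on 5 and Egr2 on 2. Junb and Ier2 were on 0. Testing required detection well above background on a minimum of 4 arrays, so 7 members were tested, and Junb, Egr2 and Ier2 were not. These 7 include genes that passed through a single age or a few pools. In GRCm38.p6, Junb (chr8:84976909-84978748) and Ier2 (chr8:84661331-84662852) share a chromosome, as do Arc (chr15:74669081-74672570) and Nr4a1 (chr15:101253902-101274795).

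**Figure D1:**
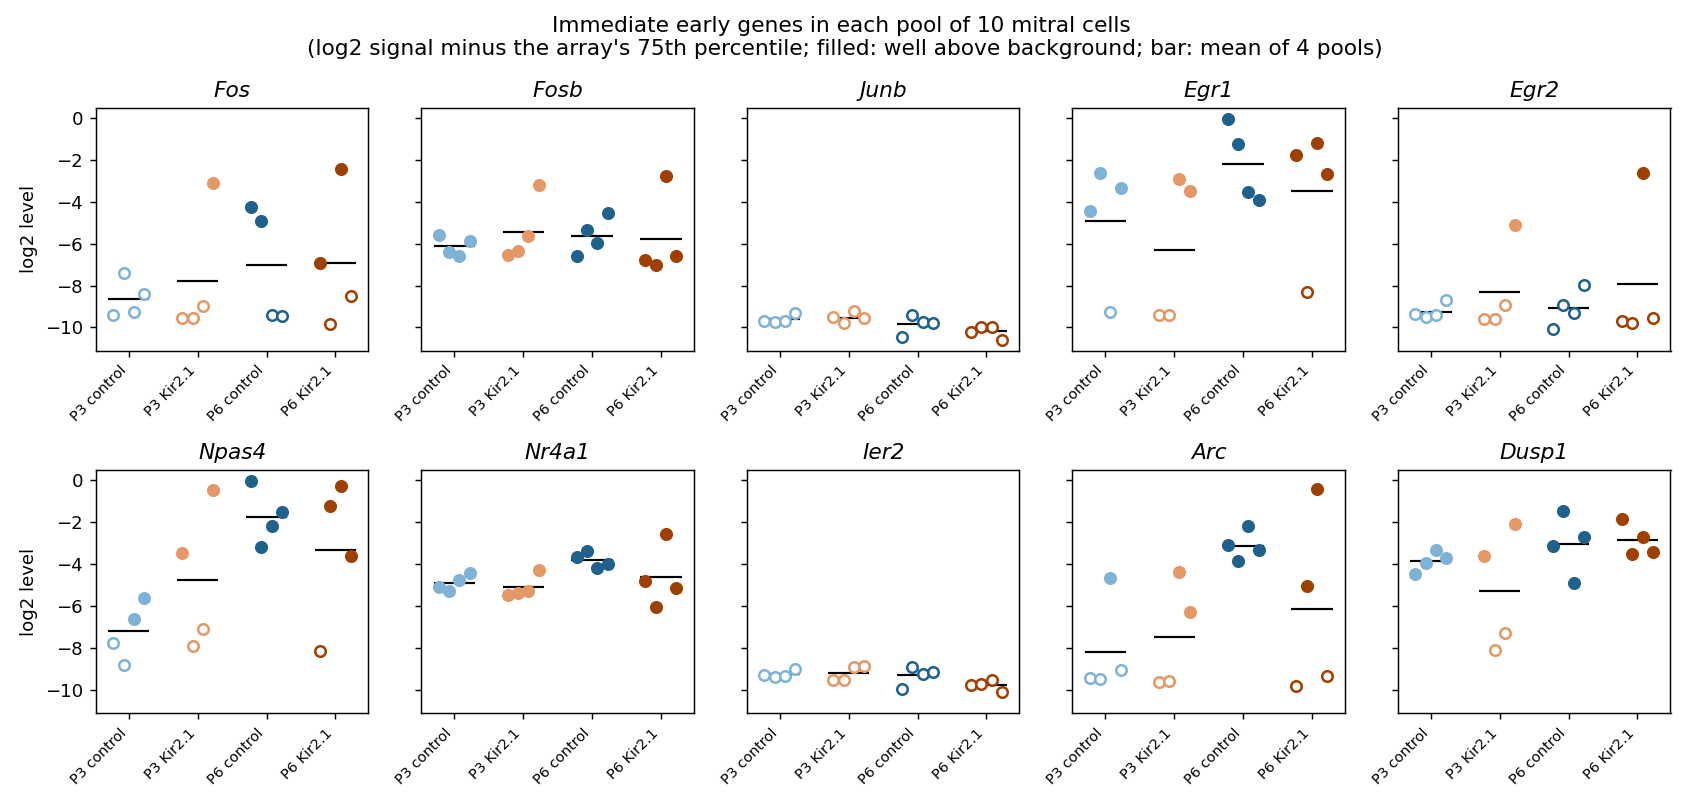
Level of each of the 10 genes in each pool, as log2 signal minus the array's 75th percentile, with 1 panel per gene and 4 groups per panel. Filled points were well above background, open points were not, and bars are means of 4 pools. Npas4 and Arc sit high in all 4 P6 control pools, while for Fos, Fosb and Egr2 a single Kir2.1 pool at each age lies above all the other pools.

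The 3 AP-1 subunits differed in detection, with Fos in 5 pools, Fosb in all 16 and Junb in 0. Fos (chr12:85473890-85477274), which pairs with Jun proteins to form AP-1, had levels of -9.43, -7.41, -9.27 and -8.42 in P3 control and -4.24, -4.92, -9.41 and -9.44 in P6 control. In Kir2.1 cells it stood at -9.56, -9.54, -8.99 and -3.08 at P3 and at -6.94, -9.82, -2.46 and -8.48 at P6. Fos was thus well above background in 0 P3 control pools, 1 P3 Kir2.1 pool, 2 P6 control pools and 2 P6 Kir2.1 pools, and every group pair overlapped. Fosb (chr7:19302696-19310118), a Fos paralogue that also gives the long-lived splice form deltaFosB, was detected throughout. Its levels were -5.59, -6.40, -6.60 and -5.87 in P3 control and -6.61, -5.36, -5.99 and -4.52 in P6 control. In P3 Kir2.1 they were -6.52, -6.35, -5.62 and -3.22, and in P6 Kir2.1 -6.81, -7.04, -2.78 and -6.57. Pool 4 of P3 Kir2.1 and pool 3 of P6 Kir2.1 lay above all the other pools for Fosb, as they did for Fos. Junb, the Jun partner in the set, stayed between -10.59 and -9.22, not well above background on any array.

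Fos could be read more closely because its probe is printed in 10 spots per array. In pool 3 of P6 Kir2.1 all 10 spots gave signals between 257 and 289, with a coefficient of variation of 3.55%. In pool 4 of P3 Kir2.1 the 9 spots kept lay between 146 and 165. Pools 1 and 2 of P6 control gave 99.2 to 126 and 27.7 to 41.5, and pool 1 of P6 Kir2.1 gave 10.2 to 16.04. On the other 11 arrays no kept spot exceeded 11.4. The spots of the first 4 of these pools lay above the kept spots of the other 12 arrays, whereas the range of pool 1 of P6 Kir2.1 overlapped that of dimmer pools. The spread between spots is technical, and the spread between pools was far wider, with mean spot signals from 2.01 to 269 in P6 Kir2.1 alone. In pool 2 of P3 Kir2.1 the scanner software marked 1 spot as an outlier at 197, with the other 9 between 2.13 and 2.58, and that spot was left out.

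**Figure D2:**
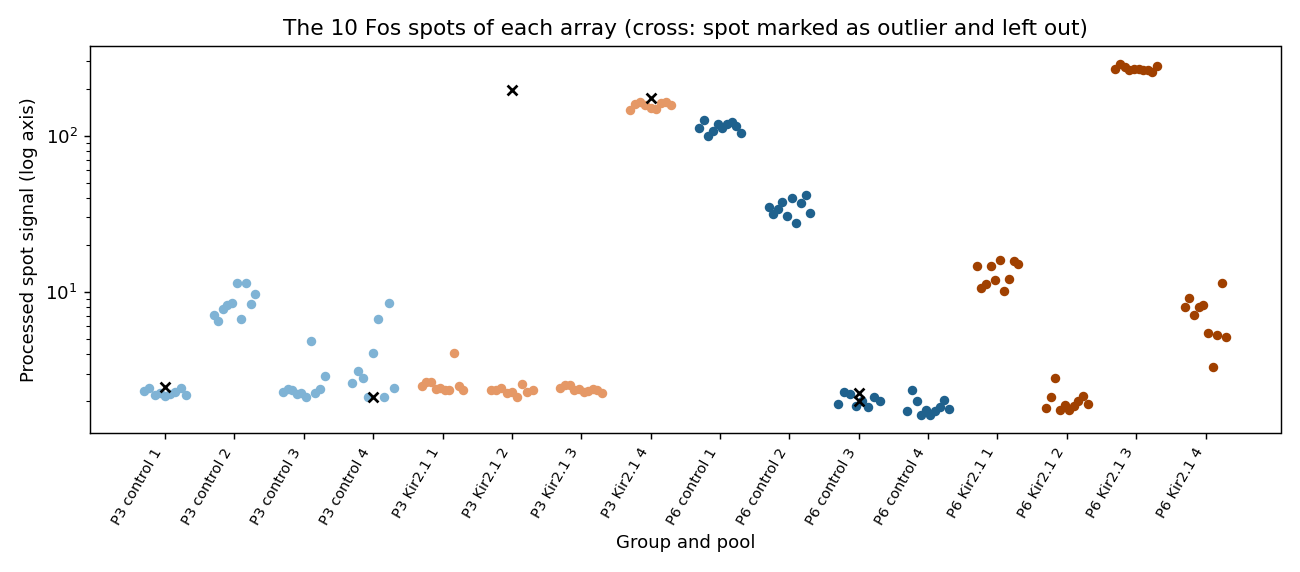
Processed signal of each of the 10 Fos spots on each of the 16 arrays, on a log axis, coloured by group, with crosses for spots marked as outliers and left out. Spots of an array lie close together in the bright pools, and pool 3 of P6 Kir2.1 (257 to 289) and pool 4 of P3 Kir2.1 (146 to 165) are the brightest.

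The EGR zinc finger factors bind GC-rich elements and differed in how often they were detected. Egr1 (chr18:34861207-34864956), which is induced by activity in many neurons and regulates synaptic genes, was at -4.44, -2.61, -9.25 and -3.35 in P3 control and -0.03, -1.24, -3.55 and -3.89 in P6 control. In Kir2.1 cells it was at -9.41, -9.41, -2.90 and -3.49 at P3 and at -1.78, -8.30, -1.22 and -2.67 at P6. In each of 3 groups at least 1 pool lay at background for Egr1 beside pools of the same group where it was well above background, and P6 control had it in all 4 pools. Egr2 (chr10:67534469-67542188), known for hindbrain patterning and myelination as well as for induction by activity, was detected in 2 pools only. It reached -5.09 in pool 4 of P3 Kir2.1 and -2.61 in pool 3 of P6 Kir2.1, and lay between -10.06 and -7.98 in the other 14. These are the 2 pools with the highest Fos.

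Npas4 and Nr4a1 are transcription factors of other families. Npas4 (chr19:4984353-5003439), a bHLH-PAS factor that responds to calcium entry with little response to growth factors and shapes inhibitory synapses, was at -7.78, -8.79, -6.60 and -5.62 in P3 control. In P6 control it was at -0.04, -3.19, -2.16 and -1.52, so every P6 control pool lay above every P3 control pool. In Kir2.1 cells it was at -3.45, -7.92, -7.12 and -0.48 at P3 and at -8.14, -1.24, -0.28 and -3.59 at P6. By mean the order was P6 control (-1.73 ± 1.32, SD, n = 4), P6 Kir2.1 (-3.31 ± 3.51), P3 Kir2.1 (-4.74 ± 3.44) and P3 control (-7.20 ± 1.38), and each neighbouring pair in that order overlapped. Nr4a1 (chr15:101253902-101274795), the orphan nuclear receptor Nur77, had the smallest SE of the 7 tested members. It was at -5.10, -5.27, -4.77 and -4.40 in P3 control and at -3.67, -3.39, -4.21 and -3.99 in P6 control, again without overlap. In Kir2.1 cells it was at -5.46, -5.38, -5.29 and -4.30 at P3 and at -4.78, -6.06, -2.56 and -5.14 at P6. All P6 Kir2.1 pools but pool 3 lay below the whole P6 control group. Ier2, a nuclear protein induced by growth factors, stayed between -10.11 and -8.85 and was not well above background on any array.

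Arc and Dusp1 act outside transcription. Arc (chr15:74669081-74672570), a synaptic protein that promotes AMPA receptor endocytosis and whose mRNA travels to dendrites, was at -9.44, -9.49, -4.68 and -9.07 in P3 control and at -3.09, -3.86, -2.16 and -3.34 in P6 control. In Kir2.1 cells it was at -9.63, -9.56, -4.38 and -6.29 at P3 and at -9.81, -5.06, -0.42 and -9.33 at P6. Arc was well above background in 1 of 4 P3 control pools and in all 4 P6 control pools, the groups did not overlap, and P6 Kir2.1 spanned from background to the highest value of all 16 pools. By mean the order was P6 control (-3.11 ± 0.71), P6 Kir2.1 (-6.15 ± 4.38), P3 Kir2.1 (-7.46 ± 2.58) and P3 control (-8.17 ± 2.34), with overlap between each neighbouring pair. Dusp1 (chr17:26505591-26508472), a nuclear phosphatase that switches off MAP kinases, was at -4.45, -3.97, -3.34 and -3.70 in P3 control and at -3.15, -1.45, -4.91 and -2.72 in P6 control. It was at -3.62, -8.10, -7.29 and -2.10 in P3 Kir2.1 and at -1.86, -3.50, -2.70 and -3.40 in P6 Kir2.1. Dusp1 was at background only in pools 2 and 3 of P3 Kir2.1, and the groups overlapped in every pair.

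Kir2.1 cells were compared with control cells at P3 to ask how the members differ in young mitral cells that carry the potassium channel. None of the 7 tested members passed the threshold, an adjusted p of limma under 0.05 after Benjamini-Hochberg adjustment over 21069 features (0 of 7, where 0.00949% of all features passed). At an unadjusted p under 0.05 the count was also 0 of 7, against 6.53% of all features. In 0 of the 7 did the Kir2.1 pools lie apart from the control pools, against 6.79% of all features in either direction. Npas4 had the largest estimate, 2.46 higher in Kir2.1 cells (SE 1.76, 95% interval -1.32 to 6.23, adjusted p = 0.871). Fos (0.84, SE 1.79), Fosb (0.69, SE 0.92) and Arc (0.71, SE 1.88) also had positive estimates, and Egr1 (-1.39, SE 1.99), Dusp1 (-1.41, SE 1.12) and Nr4a1 (-0.22, SE 0.57) negative ones. The members' median was 0.69, beside -0.03 over all features. Pool 4 carried the positive values of Fos and Fosb. Without it, Fos came to -0.73, Fosb to -0.05 and Npas4 to 1.04, but the pool is singled out for its high values, so these are descriptions. Arc turned to -0.32 without pool 3 of P3 Kir2.1.

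At P6 the same comparison asked how the members differ once mitral cells are older, and again 0 of 7 passed, where 1.76% of all features did. The count at an unadjusted p under 0.05 was 0 of 7, against 17.5% of all features, and the groups lay apart in 0 of 7, against 8.89%. The estimate for Arc was -3.04 (SE 1.88, 95% interval -7.07 to 1.00, adjusted p = 0.425), for Npas4 -1.59 (SE 1.76, adjusted p = 0.683) and for Egr1 -1.31 (SE 1.99, adjusted p = 0.784). Nr4a1 had an estimate of -0.82 (SE 0.57, 95% interval -2.06 to 0.41, adjusted p = 0.487). Fosb (-0.18), Fos (0.08) and Dusp1 (0.19) had estimates near 0, and their signs changed with the processing. The members' median was -0.82, beside -0.12 over all features, and 2 of 7 estimates were positive, where 43.7% of features were. The estimates moved with single pools. Without pool 3 of P6 Kir2.1, Arc came to -4.95, Nr4a1 to -1.51 and Fos to -1.41, but that pool is singled out for its high values, so its removal lowers the members by choice and these are descriptions. Without pool 1, Npas4 turned to 0.02 and Arc came to -1.82. Without pool 2, Egr1 turned to 0.29 and Nr4a1 came to -0.35. The intervals around the P6 estimates hold both no difference and several-fold differences.

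Averaged over both ages, 0 of 7 members differed between Kir2.1 and control, where 0.712% of all features passed. At an unadjusted p under 0.05 the count was 0 of 7, against 13.5% of features. Nr4a1 had the lowest adjusted p, 0.613 (-0.52, SE 0.41).

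The comparison of P6 with P3 in control cells asked how the members move with age. All 7 tested members had a higher mean at P6, with a median difference of 1.63 beside -0.07 over all features, of which 46.7% were positive. None passed the threshold after adjustment (0 of 7, where 2.59% of all features did), and 2 of 7, Npas4 and Arc, had an unadjusted p under 0.05, against 17.9% of all features. Npas4 was 5.47 higher at P6 (SE 1.76, 95% interval 1.70 to 9.25, adjusted p = 0.118), with 2 of the 4 P3 pools at background. Arc was 5.06 higher (SE 1.88, 95% interval 1.02 to 9.09, adjusted p = 0.173), with 3 of the 4 P3 pools at background. With dim values set to the detection floor the differences were 5.02 for Npas4 and 3.501 for Arc. Nr4a1 was 1.07 higher (SE 0.57, 2.1-fold, adjusted p = 0.352). These 3 were the members in which every P6 control pool exceeded every P3 control pool, 3 of 7, against 6.01% of all features in that direction. Each of the 3 kept its direction in every setting tried. Their size fell under normexp, another background correction whose offset compresses dim signals, to 2.73 for Npas4, 1.71 for Arc and 0.51 for Nr4a1. The SEs, here as in the other comparisons, use a spread per gene shared by all 4 groups, so the Kir2.1 pools enter them. For Nr4a1 the SD was 0.38 in P3 control and 0.36 in P6 control. It was 0.54 in P3 Kir2.1 and 1.48 in P6 Kir2.1. The count past the threshold rose to 1 of 7 when only the 8 control arrays entered the fit, with an adjusted p of 0.0444 for Npas4. Over the 28 other settings the adjusted p of Npas4 lay between 0.0444 and 0.236. Egr1 (2.73, SE 1.99, adjusted p = 0.516), Fos (1.63, SE 1.79, adjusted p = 0.688), Dusp1 (0.81, SE 1.12, adjusted p = 0.756) and Fosb (0.50, SE 0.92, adjusted p = 0.826) overlapped between ages. Fos was not well above background in any P3 control pool or in 2 of the 4 P6 control pools, so it is given no fold.

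In Kir2.1 cells the same comparison of ages gave 0 of 7 past the threshold, where 0.878% of all features passed. The groups lay apart in 0 of 7, against 10.5% of all features in either direction. Dusp1 had the lowest p (2.41, SE 1.12, unadjusted p = 0.0491, adjusted p = 0.331) and was the 1 of 7 at an unadjusted p under 0.05, against 15.0% of all features. Egr1 (2.81, SE 1.99), Npas4 (1.43, SE 1.76), Arc (1.31, SE 1.88), Fos (0.87, SE 1.79) and Nr4a1 (0.47, SE 0.57) had positive estimates and Fosb (-0.37, SE 0.92) a negative one. Without pool 3 of P6 Kir2.1, Arc, Fos and Nr4a1 came to -0.60, -0.62 and -0.22. Without pool 4 of P3 Kir2.1, Fosb turned to 0.36 and Fos came to 2.43.

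Whether Kir2.1 acted differently at P6 than at P3 was tested as the interaction of age and Kir2.1, and 0 of 7 members passed, where 0.0902% of all features did. At an unadjusted p under 0.05 the count was 0 of 7, against 10.7%. Npas4 (-4.04, SE 2.48, adjusted p = 0.604) and Arc (-3.75, SE 2.65, adjusted p = 0.662) had the largest estimates, with intervals of -9.38 to 1.30 and -9.45 to 1.96. The age differences in control and in Kir2.1 cells were therefore not shown to differ for any tested member.

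**Figure D3:**
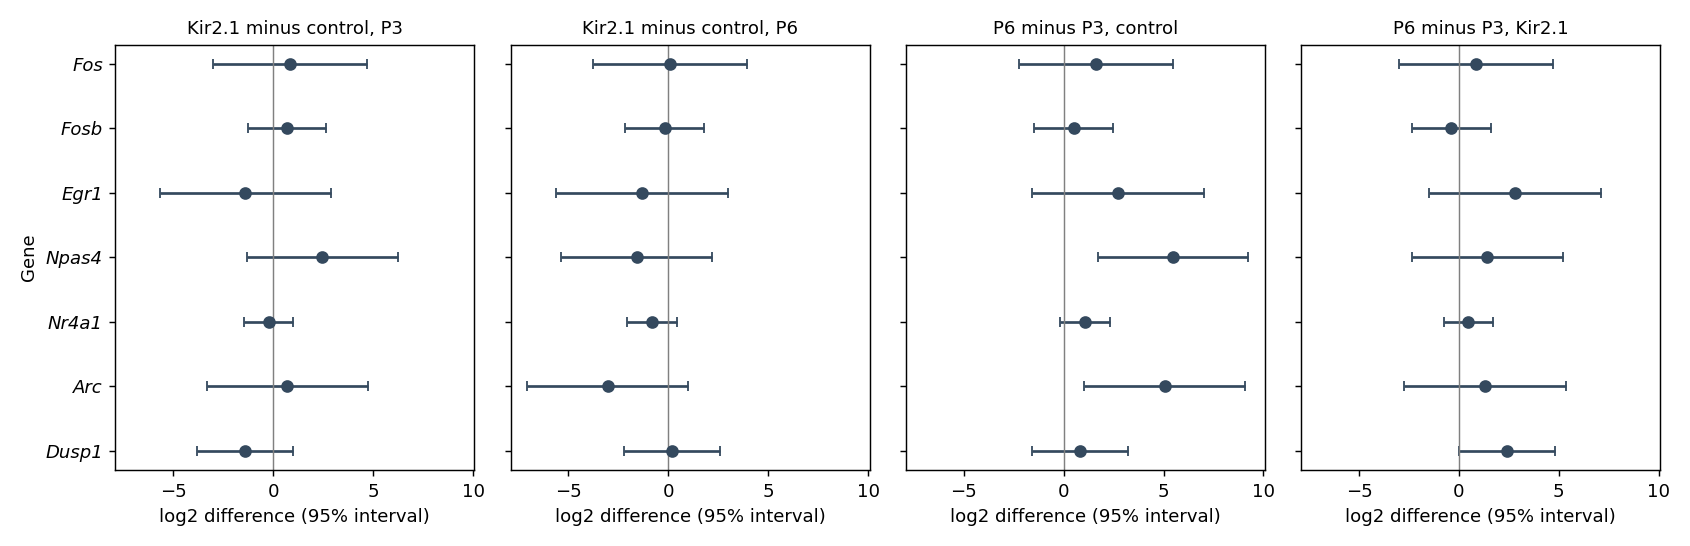
Difference of means for each of the 7 tested members in 4 comparisons, on the log2 scale, with 95% intervals from limma over 16 arrays. The intervals of Npas4 (1.70 to 9.25) and Arc (1.02 to 9.09) lie above 0 for P6 against P3 in control cells, and Dusp1 (0.01 to 4.81) barely does in Kir2.1 cells, before adjustment for the number of features.

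In each Kir2.1 group 1 pool was high for most members, and it is picked out here because its values were high, so its counts are a description without a test. The spread of other members came from other pools, such as pool 2 of P6 Kir2.1 for Egr1 (-8.30), pool 1 of P6 Kir2.1 for Npas4 (-8.14) and pools 2 and 3 of P3 Kir2.1 for Dusp1 (-8.10 and -7.29). In pool 4 of P3 Kir2.1, 8 of the 10 members were well above background, against 2 to 4 in the other 3 pools of that group and 4 or 5 in P3 control. It was the highest of the 8 P3 pools for 5 of the 7 tested members (Fos, Fosb, Npas4, Nr4a1 and Dusp1), and for 13.1% of all features. In pool 3 of P6 Kir2.1, 8 of the 10 members were also well above background, against 5 in each of the other 3 and 6 or 7 in P6 control. It was the highest of its group for 6 of the 7 tested members, all but Dusp1, and for 25.0% of all features. Over all 16 pools it was the highest for Fos, Fosb, Nr4a1 and Arc, 4 of 7, and for 7.61% of all features. The mean level of the 7 tested members was -3.28 in pool 4 of P3 Kir2.1, where the other 3 lay between -8.04 and -5.94 and P3 control between -6.61 and -5.78. It was -1.77 in pool 3 of P6 Kir2.1, where the other 3 lay between -5.86 and -5.60 and P6 control between -4.63 and -2.98. With all 4 pools, Kir2.1 and control overlapped in this mean at both ages. At P6 the Kir2.1 pools lay below control only with pool 3 set aside, and that pool was picked for its high values.

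**Figure D4:**
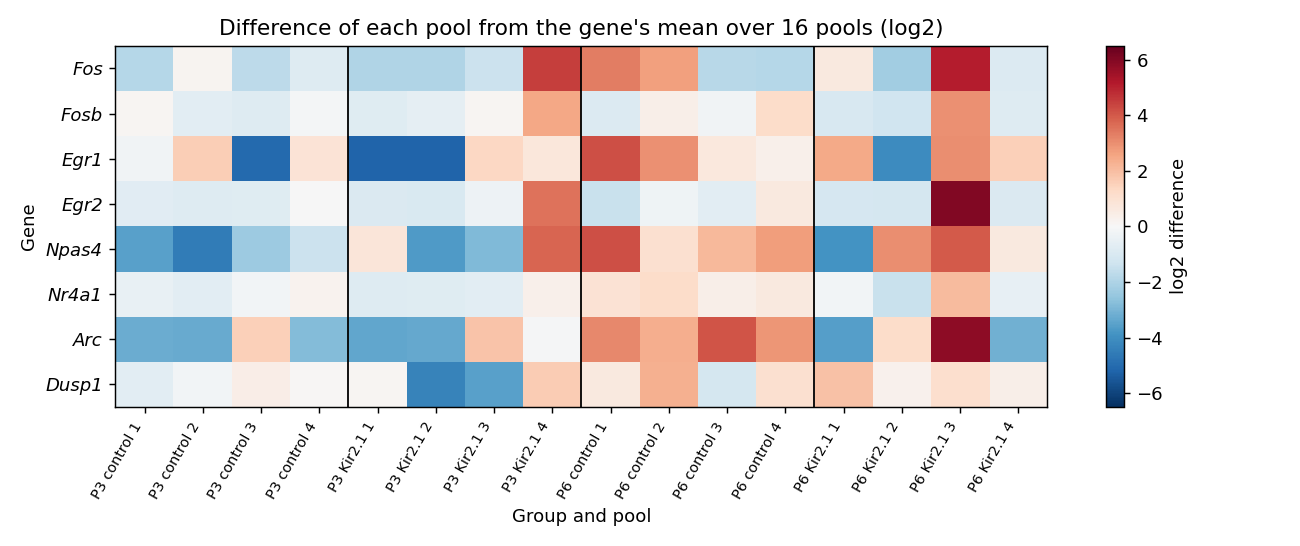
Difference of each pool from the gene's mean over 16 pools, on the log2 scale, for the 7 tested members and Egr2, which was not tested. Pool 4 of P3 Kir2.1 and pool 3 of P6 Kir2.1 are red for most genes, and the 4 P6 control pools are red for Npas4 and Arc.

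Members rose and fell together only in part. Over the 8 pools of P3, the median Pearson correlation of the 21 pairs of tested members was 0.48, from -0.02 to 0.88 (Fos with Fosb), and 20 pairs were above 0. Over the 8 pools of P6 the median was 0.39, from -0.40 to 0.80 (Arc with Npas4), with 18 pairs above 0. These values describe 8 pools that share a slide and 2 treatments, and the 2 high pools weigh on them. Among 9008 named genes, the pattern over 16 arrays most like that of Nr4a1 was found for S100a13 (r = 0.84), Olfr1402 (0.81) and Sorl1 (0.81), and that of Fosb for Olfr1402 (0.83), Ftdc2 (0.78) and Polr1c (0.74). For Egr1 the nearest were Ctps2 (0.86), Ppara (0.82) and Car10 (0.81), and for Dusp1 Trip12 (0.91), Xylt2 (0.82) and Endod1 (0.81). Rank correlations (Spearman), less swayed by single extreme pools, were 0.60, 0.51 and 0.65 for Fosb in the same order. They were 0.79, 0.83 and 0.82 for Nr4a1, 0.71, 0.73 and 0.64 for Egr1, and 0.84, 0.63 and 0.685 for Dusp1. The arrays share depth of amplification but lay on different slides for P3 and P6, so these correlations also hold the difference of age and slide. For Nr4a1 with S100a13, r was 0.47 within P3 and 0.86 within P6. All these values are descriptions over 16 points or fewer.

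Markers of other cell types moved with the members in some pools. A summed level below is the log2 of the sum of a list's levels on the linear scale, so a bright marker can dominate it. Interneuron markers, 10 of 11 tested, had summed levels of 1.17 to 2.93 in P6 control, against -1.04 to -0.19 in P3 control, -0.60 to 0.00 in P3 Kir2.1 and -0.91 to 1.41 in P6 Kir2.1. All 10 were higher at P6 in control cells, in the groups where Npas4, Arc and Nr4a1 stood apart. Of the 10, 3 passed the threshold, where 2.59% of all features did. All 7 astrocyte and radial glia markers and all 6 ensheathing cell markers were also higher there, with 1 of each list past the threshold. Positive and negative estimates were 7 and 1 for oligodendrocyte lineage, 3 and 2 for microglia, and 3 and 2 for vascular cells. They were 7 and 5 for mitral and tufted cells and 1 and 3 for olfactory sensory neurons. With Kir2.1 at P6, 9 of 10 interneuron markers had negative estimates, in the comparison where 5 of 7 members were negative. Of the 10, 1 passed the threshold, where 1.76% of all features did. All 7 astrocyte and radial glia markers and 5 of 6 ensheathing cell markers were also negative there, with 0 past the threshold. Positive and negative estimates were 3 and 5 for oligodendrocyte lineage, 3 and 2 for vascular cells, and 1 and 3 for olfactory sensory neurons. Slc32a1, the vesicular GABA transporter, was well above background on all 16 arrays, and Gad1 in 1 of 4 P3 control and 4 of 4 P6 control pools. Astrocyte and radial glia markers, 7 of 8 tested, had summed levels of 0.80 to 2.12 in P3 control, 1.82 to 3.34 in P3 Kir2.1, 3.55 to 3.81 in P6 control and 1.99 to 3.94 in P6 Kir2.1. The highest values of both Kir2.1 ranges belong to pool 4 of P3 Kir2.1 and pool 3 of P6 Kir2.1. Each was the pool of its own group with the highest mean level of the 7 tested members. Ensheathing cell markers, all 6 tested, ran from 0.65 to 3.08 in P3 control, 1.82 to 3.26 in P3 Kir2.1, 3.35 to 3.89 in P6 control and 1.55 to 4.91 in P6 Kir2.1, with the highest value of all 16 in pool 3 of P6 Kir2.1. The interneuron sum was low in pool 4 of P3 Kir2.1 (-0.60, the lowest of its group) and intermediate in pool 3 of P6 Kir2.1 (0.34). Vascular cell markers, 5 of 8 tested, had summed levels of 1.90 and 1.89 in pools 1 and 2 of P6 Kir2.1 and of -0.80 to 0.02 in the other 14 pools. Oligodendrocyte lineage markers, all 8 tested, had summed levels of -0.64 to 2.00 in P3 control and -0.64 to 1.57 in P3 Kir2.1. At P6 these were 0.61 to 2.54 in control and 0.10 to 2.57 in Kir2.1. Pool 3 of P6 Kir2.1 (2.57) and pool 3 of P6 control (2.54) were nearly level. By the mean log2 level of these markers, pool 3 of P6 control was higher (-2.05 against -3.89). Microglia markers, 5 of 8 tested, ran from -1.82 to -1.35, -2.41 to -1.39, -1.24 to 0.20 and -2.36 to -0.75 in the same order of groups, and all 5 had negative estimates with Kir2.1 at P6. Mitral and tufted cell markers, 12 of 13 tested, had 8 positive and 4 negative estimates in that comparison, 1 of them past the threshold and higher. The part of other cells in these results was not tested.

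**Figure D5:**
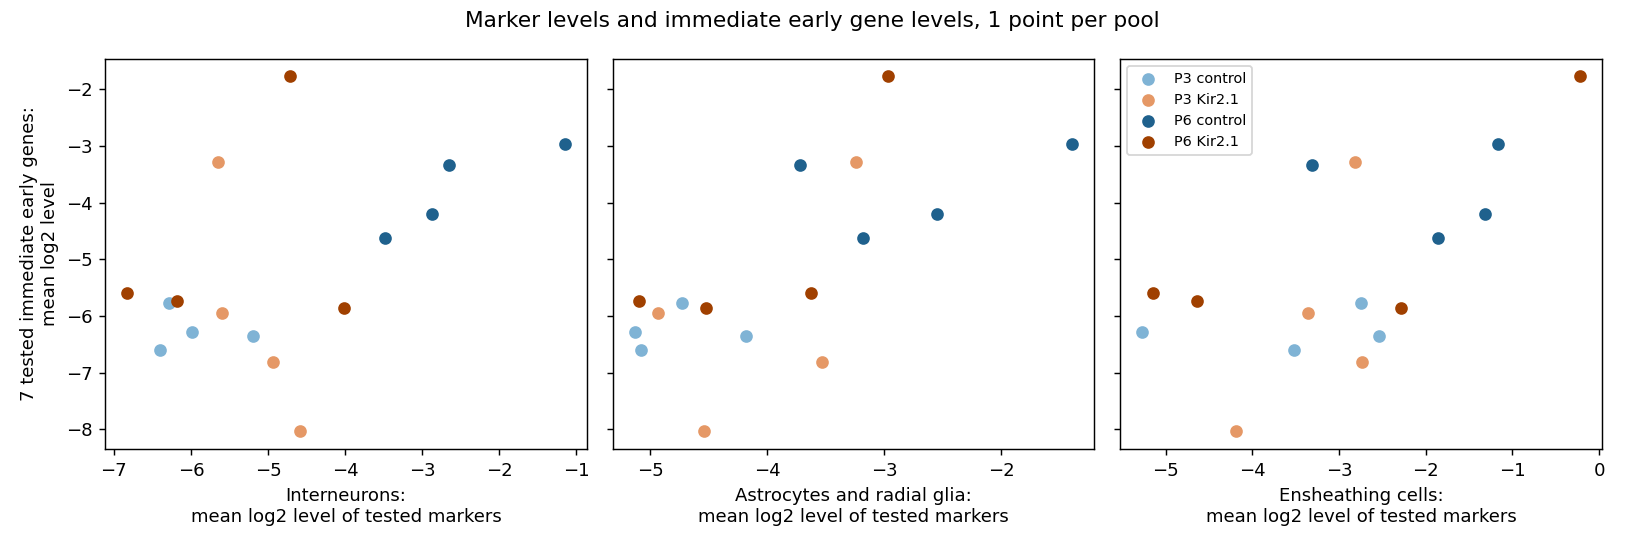
Mean log2 level of the 7 tested members (vertical axis) against the mean log2 level of the tested markers of interneurons, of astrocytes and radial glia, and of ensheathing cells, with 1 point per pool. The 4 P6 control pools lie at the right of the interneuron panel, and pool 3 of P6 Kir2.1 is the highest point of all panels and the farthest right for ensheathing cells.

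Other immediate early genes gave a check over a longer list of 40, of which 28 were tested. Between 15 and 21 of the 40 were well above background in a P3 pool and between 18 and 25 in a P6 pool, with the most, 25, in pool 3 of P6 Kir2.1. With Kir2.1, 0 of 28 passed the threshold at P3 (15 positive, 13 negative) or at P6 (13 positive, 15 negative). Ier5, a relative of Ier2, had the lowest p at P3 (4.05, SE 1.21, adjusted p = 0.513), with all 4 Kir2.1 pools above the control pools. Of the 28, 1 lay above and 1 below control without overlap at P3, against 6.79% of all features in either direction. With age in control cells, 1 of 28 passed the threshold (where 2.59% of all features did), Ccn2, which encodes a secreted matrix protein also called connective tissue growth factor. Ccn2 was at -4.89, -5.54, -5.80 and -6.77 in P6 control, where it was well above background in every pool, and at background in every P3 pool. The call rests on P3 values at background (log2 estimate 3.54, SE 0.82, adjusted p = 0.0396). As a bound, with P3 values at the detection floor, Ccn2 was 2.88-fold higher at P6. The fit with dim values set to that floor gave 1.53 without a call (adjusted p = 0.0953), and normexp gave 0.57. The adjusted p of Ccn2 lay between 0.00355 and 0.244 over 27 other settings, 16 of which lost the call. Ccn2 was detected on 5 arrays, so it passed the filter through the group where it was high, and it was not tested when detection on 8 arrays was required. In P6 Kir2.1, Ccn2 was detected in pool 3 alone, at -6.05, with the others between -10.45 and -10.05 (Kir2.1 against control -3.40, SE 0.82, adjusted p = 0.0534). The median difference with age in control cells was 0.64 for this list, beside -0.07 over all features, with 17 positive and 11 negative. In Kir2.1 cells 0 of 28 passed with age, and Klf6, a zinc finger factor, had the lowest p (3.31, SE 0.85, adjusted p = 0.0909).

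Of 23 factors and kinases upstream of the members, 18 were tested. Srf, which encodes the factor at the CArG box, fell with age in control cells by 2.66 (SE 0.63, adjusted p = 0.0417), from -0.16, 0.24, 0.27 and -0.46 at P3 to -1.40, -4.13, -1.60 and -3.64 at P6. It was the only 1 of 18 past the threshold in that comparison, where 2.59% of all features passed. Its direction was kept in all 28 other settings, and 13 of them lost the call, with adjusted p up to 0.123. With Kir2.1, 0 of 18 passed at P3 or P6. At P6, Elk1, an ETS cofactor of SRF (-0.81, SE 0.21, adjusted p = 0.0653), and Crebbp, the coactivator of CREB (-1.24, SE 0.35, adjusted p = 0.0869), lay below control in all 4 pools without passing. They were the 2 of 18 that lay apart from control, against 8.89% of all features in either direction.

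Genes of heat shock and dissociation stress, 10 of 13 tested, had mean levels between 0.92 and 1.90 over the tested genes. All 10 were well above background on all 16 arrays, with Nfkbia the lowest of those named, between -3.92 and -0.42, while Hspa1a, the inducible heat shock protein gene, was on 0 arrays and Hspb1 on 1. Pool 3 of P6 Kir2.1 had the lowest mean, 0.92, and pool 4 of P3 Kir2.1 had 1.02, the lowest of its group (1.02 to 1.34). None of the 10 passed the threshold with Kir2.1 or with age, and at P3 all 10 had negative estimates with Kir2.1 (median -0.31, beside -0.03 over all features). Hspd1, a mitochondrial chaperone, had the lowest adjusted p of these 4 comparisons, with age in control cells (-0.97, SE 0.29, adjusted p = 0.0937).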

How the data were processed

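The deposited scanner tables gave 1-colour (Cy3) Agilent spot signals as background-subtracted intensity, produced with Agilent Feature Extraction 10.7.3.1 per the submitters' processing notes. The series' deposited value table held the same intensity divided by each array's 75th percentile over gene spots (ratio to the scanner values' percentile 1.0 to 1.0008, medians per array 0.0395 to 0.13); it is linear, uncentred and served as an alternative. The genome build of the array design was not used; gene positions come from RefSeq for GRCm38.p6.

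Control spots and outlier spots were left out, log2 spots of a probe were averaged, and 83 of 55681 probes were dropped for having no usable spot on some array. A RefSeq accession was given for 28079 probes and matched a symbol for 26540. Most probes were not detected, so log2 signals were scaled by the 75th percentile over the 12102 probes well above background on all 16 arrays. Tested probes had to be well above background on 4 or more arrays, and the brightest probe stood for a gene, which left 21069 features with 12030 named genes. Limma 3.58.1 (R 4.3.3) was fitted to all 16 arrays, with 12 residual and 1.64 prior degrees of freedom; every adjusted p is from it, two-sided. Data were simulated for Kir2.1 against control at P6 over 21069 features. The fit recovered 33 of 100 features changed by 2 and 68 of 100 changed by 4 on the log2 scale, with 8 false calls. The noise was normal and the changed features were drawn from all features, so these rates do not hold for each member. The SEs of Fos, Arc, Egr1 and Npas4 in that comparison were 1.756 to 1.995. A group not well above background on any of its arrays has only a bound, its arrays set to the lowest signal well above background or their own, whichever was higher. The number of arrays limits precision.

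The members, the gene and marker lists and the tests were chosen with earlier results of these data known, so they are no independent evidence. Named were all members, listed genes past the threshold or those with the lowest p per list and comparison, and the 3 genes most like each member that was well above background on at least 12 arrays. The alternatives covered background correction (normexp, run on the median signals, as the mean signals were not in the tables used), normalization, scaling, filters, dim values, choice of probe, array weights, prior variance, samples in the fit, replicate number and leaving out each pool.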

Additional observations from a re-analysis of the deposited data

Results flagged for a closer look

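In 29 sets of 4 pools, each a gene in a group where it was well above background at least once, 6 pools lay farther from the rest than the 95% limit of Dixon's gap test; chance flags about 1 in 20 sets that were not selected. That share does not apply to 4 of the 6, Fos and Egr2 in P3 Kir2.1, Egr2 in P6 Kir2.1 and Arc in P3 control, where 1 pool was well above background and the other 3 lay together at background. Of the 6, 3 were pool 4 of P3 Kir2.1, with Fos at -3.08 (others -9.56 to -8.99), Egr2 at -5.09 (others -9.60 to -8.95) and Nr4a1 at -4.30 (others -5.46 to -5.29). Pool 3 of P6 Kir2.1 gave 2, with Fosb at -2.78 (others -7.04 to -6.57) and Egr2 at -2.61 (others -9.79 to -9.56). The last was Arc in pool 3 of P3 control, at -4.68 (others -9.49 to -9.07).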

How the results depend on the processing

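Under the settings run for each comparison, the count of members past the threshold was 0 with 1 exception: with only the arrays compared, P6 against P3 in control cells gave 1, Npas4. The fit of only the arrays compared was not run for the mean over ages or the interaction, nor the block on replicate number for the age comparisons, which it could not estimate. Leaving out each pool gave 0 in every comparison. Among member values under other settings, 1 of 90 with Kir2.1 at P3, 7 of 90 at P6, 0 of 83 with age in control cells and 2 of 83 with age in Kir2.1 cells changed sign, all of them without a call. For Kir2.1 against control at P6, Fos came to -0.39 with array weights, -0.39 with dim values at the detection floor and -0.17 with normexp; Fosb came to 0.019 from the value table, 0.0091 with quantile normalization and 0.030 with scaling over all probes; and Dusp1 to -0.0093 with normexp. Arc at P3 came to -0.011 with normexp, and Fos with age in Kir2.1 cells to -0.13 at the detection floor and -0.017 with normexp. Leaving out 1 pool turned signs within these ranges: with Kir2.1 at P3, Fos -0.73 to 1.43, Fosb -0.047 to 1.05 and Arc -0.32 to 1.87; at P6, Fos -1.41 to 1.04, Fosb -1.19 to 0.23, Egr1 -2.07 to 0.29, Npas4 -2.60 to 0.023 and Dusp1 -0.43 to 0.73; with age in Kir2.1 cells, Fos -0.62 to 2.43, Fosb -1.38 to 0.36, Arc -0.60 to 2.53 and Nr4a1 -0.22 to 0.94. With age in control cells 0 signs turned. The causes were not tested. Over all features the counts moved more: 2 features with Kir2.1 at P3 (0 to 25 over settings), 370 at P6 (20 to 718), 150 for the mean (2 to 343), 545 with age in control (181 to 884) and 185 in Kir2.1 cells (24 to 260), and 19 for the interaction (0 to 99). With the replicate number within age as a block, 0 members passed for Kir2.1 at P3, at P6 and for the mean, with 0, 36 and 2 of all features; the samples share only a number, since deviations of same-numbered pools correlated between -0.03 and 0.03. Signals near background limit Fos, Arc, Egr1, Egr2 and Npas4 most, since a dim pool has only an upper bound.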
